A study of Mus musculus with 6 samples.

Results

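Lgr6, Sfrp1 and Ctnnb1 are 3 genes of the Wnt pathway that stand at different levels of it: a receptor, a secreted antagonist and the intracellular transducer. All 3 had an entry of their own among the 8078 entries of the table. They count as chosen by their injured and uninjured FPKM in these same 6 libraries, since those values were known when the genes were picked. Their levels and changes are therefore given as a description, with no test. In the mouse Lgr6 lies on chromosome 1, Sfrp1 on chromosome 8 and Ctnnb1 on chromosome 9.

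RNA was measured in horizontal basal cells, the reserve stem cells of the olfactory epithelium, of B6;KRT5-CreER;Ai9 fl(Stop)TdTomato mice aged 12 weeks. All mice received tamoxifen 2 weeks before the sort. This switched on TdTomato in cells whose keratin 5 promoter was then active, so the colour marks that lineage and not the state of a cell when it was sorted. The 3 injured libraries came from mice that had breathed methyl bromide, a gas that destroys most of the epithelium, at 180 ppm for 8 h and were taken 18 h later. The 3 uninjured libraries came from mice of the same genotype, age and tamoxifen treatment without the gas. Each library pooled sorted cells of several animals and is the replicate. The values are taken to be FPKM, fragments scaled by transcript length and by library size, which allows levels to be compared between genes.

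In the canonical Wnt pathway, secreted Wnt ligands bind Frizzled receptors with the co-receptors Lrp5 and Lrp6. Without a ligand, a destruction complex built on Apc and Axin marks beta-catenin, the product of Ctnnb1, for degradation. With a ligand beta-catenin accumulates and acts in the nucleus with the TCF/LEF factors. R-spondins, bound by Lgr4, Lgr5 or Lgr6, strengthen the signal by removing the ubiquitin ligases Znrf3 and Rnf43, which otherwise clear Frizzled receptors from the surface. Secreted frizzled-related proteins such as Sfrp1 bind Wnt ligands outside the cell. Beta-catenin has a second role at the membrane, where it links cadherins to alpha-catenin. Wnt signalling is known to act on basal stem cells of the olfactory epithelium and on the renewal of its neurons.

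The libraries differed in ways that touch the members. Summed FPKM ran from 164265 to 231755, and injured replicate 2 was the lowest. Across genes, which do not count as independent replicates, log2 values correlated (Pearson) at 0.734 and 0.754 between injured replicate 2 and the other injured libraries, at 0.849 between those other libraries and at 0.885 to 0.905 among uninjured libraries. Immature neuron markers, of which all 7 listed were in the table, summed to 18.1 to 393 FPKM in injured libraries, with the highest in replicate 2, and to 32.2 to 59.0 FPKM in uninjured libraries. The X-silencing RNA Xist had 0.0645, 0.346 and 0.561 FPKM in injured libraries and 27.4, 33.8 and 27.0 FPKM in uninjured libraries. The Y-linked genes Ddx3y, Eif2s3y, Kdm5d and Uty summed to 49.0, 52.8 and 42.6 FPKM in injured and to 32.5, 5.04 and 6.35 FPKM in uninjured libraries. The sources used here do not give the sex of the pooled animals, so injury and any difference in sex between the pools cannot be told apart. The entry Mir703 made up 8.01% to 18.6% of summed FPKM in injured and 22.0% to 25.4% in uninjured libraries, which bears on any scaling by the sum. The horizontal basal cell factor Trp63 was present in each library, as were markers of other cell types. Krt5 was not analysed here. The median log2 change of all 7987 genes tested was 0.16, so a gene at 0 stood slightly below that median.

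Promoter windows, searched for runs of letters that TCF/LEF factors can bind, are printed for Lgr6, the member with the largest change, and for Fzd7. Fzd7 is a Frizzled receptor that also stood lower in each injured library, and of the printed windows only its own held a match. Each window runs from 250 bases before to 50 bases after a transcript start, 5′ to 3′ on the strand of the gene, from RefSeq on GRCm38.p6, which is not the build named for these libraries. A window was at hand for Lgr6 and Ctnnb1. Capitals mark a match on either strand to CTTTGAA or to CTTTGAT or to CTTTGTA or to CTTTGTT.
Lgr6, chr1:135105227-135105526, minus strand: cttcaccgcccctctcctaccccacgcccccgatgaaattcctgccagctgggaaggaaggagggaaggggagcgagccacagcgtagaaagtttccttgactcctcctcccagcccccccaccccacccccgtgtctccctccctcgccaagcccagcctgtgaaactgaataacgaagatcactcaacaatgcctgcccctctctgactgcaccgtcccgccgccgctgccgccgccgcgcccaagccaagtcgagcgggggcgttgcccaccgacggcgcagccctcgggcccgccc
Fzd7, chr1:59481897-59482196, plus strand: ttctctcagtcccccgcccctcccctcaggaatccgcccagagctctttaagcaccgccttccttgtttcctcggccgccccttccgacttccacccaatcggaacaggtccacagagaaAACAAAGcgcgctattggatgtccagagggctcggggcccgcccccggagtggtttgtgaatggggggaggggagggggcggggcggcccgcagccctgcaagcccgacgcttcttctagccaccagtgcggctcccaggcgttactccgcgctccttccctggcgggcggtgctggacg
The Lgr6 window held no match, and neither did the 2 windows of Ctnnb1. The Fzd7 window held 1 match, in the reverse direction. Fzd7 was the only gene to hold one among 19 Wnt genes with a window that were named by the rule given under processing. Myc, Fosl1, Tmed5 and Ctnnd2, also named below, are not among the 19. Among all 32851 windows of that length 16.9% held a match. Among tested genes with a window it was 792 of 5820 genes, or 13.6%, and among tested Wnt genes with a window it was 5 of 68, or 7.35%, a small count that was not tested against the rest. A match is a run of letters and not evidence of binding, and its absence says only that these letters are not in the window.

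Lgr6, which encodes a seven-pass receptor for R-spondins, was at 4.39, 5.34 and 4.16 FPKM in injured replicates 1 to 3, against 10.04, 10.2 and 10.8 FPKM in uninjured replicates 1 to 3. Every injured library was below every uninjured one, with 4.70 FPKM between the nearest libraries of the groups. Of all genes tested 6.75% stood lower in this way, and Lgr6 counts as chosen on these values. The mean was 4.63 ± 0.626 FPKM in injured and 10.3 ± 0.386 FPKM in uninjured libraries (SD, n = 3 each), so that the injured mean was 44.7% of the uninjured one. As log2(FPKM + 1), where adding 1 shrinks the change of a low gene, the difference was -1.02 ± 0.09 (SE from the spread of these 6 values, as for Sfrp1 and Ctnnb1). Of the 7987 genes tested, 3.16% had a more negative change. Lgr6 was a gene of middling level in uninjured cells, above 60.2% to 61.6% of genes tested, and stood above 22.5% to 29.6% of them in injured libraries.

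Sfrp1, the secreted antagonist, was at 68.3, 46.4 and 66.0 FPKM in injured replicates 1 to 3, against 108, 109.8 and 106 FPKM in uninjured replicates 1 to 3. These groups did not overlap either, beside 6.75% of all genes tested that stood lower in this way, and injured replicate 2 held the lowest value. The mean was 60.2 ± 12.0 FPKM in injured and 108 ± 2.17 FPKM in uninjured libraries (SD, n = 3 each), so that the injured mean was 55.8% of the uninjured one, and the difference on the log2(FPKM + 1) scale was -0.85 ± 0.18 (SE). Sfrp1 remained an abundant transcript, above 93.6% to 94.7% of genes tested in injured libraries and above 97.3% to 98.2% in uninjured libraries.

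Ctnnb1, which encodes beta-catenin, was at 143, 93.0 and 148 FPKM in injured replicates 1 to 3, against 125, 122 and 112 FPKM in uninjured replicates 1 to 3. The groups overlapped: 2 injured libraries were above and injured replicate 2 was below the uninjured range. The mean was 128 ± 30.3 FPKM in injured and 119.7 ± 6.63 FPKM in uninjured libraries (SD, n = 3 each). The difference on the log2(FPKM + 1) scale was 0.07 ± 0.22 (SE), smaller than its error, and it was 0.28 without injured replicate 2, -0.03 without injured replicate 1, -0.05 without injured replicate 3 and -0.12 after upper-quartile scaling. In each library Ctnnb1 was above at least 97.4% of genes tested.

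**Figure D1:**
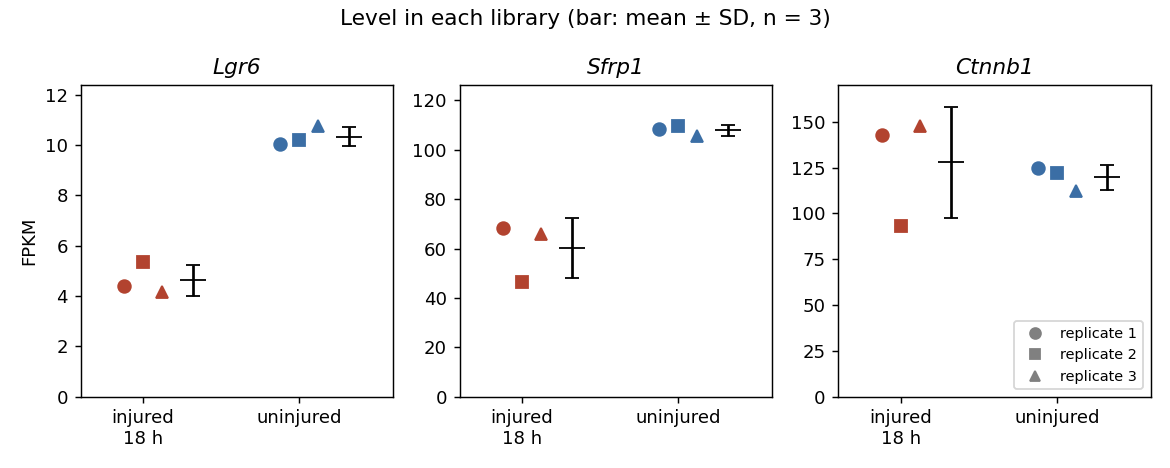
Level in FPKM of Lgr6, Sfrp1 and Ctnnb1 (panels) in the 3 injured and the 3 uninjured libraries, each point a library with its shape giving the replicate number, and the bar giving the mean ± SD (n = 3). Injured libraries lie below all uninjured ones for Lgr6 (4.16 to 5.34 against 10.04 to 10.8) and Sfrp1 (46.4 to 68.3 against 106 to 109.8), while for Ctnnb1 they span the uninjured range. Among all genes tested 6.75% stood lower without overlap.

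The 3 genes were steady among uninjured pools, and less so after injury. The coefficient of variation was 13.5%, 20.0% and 23.7% for Lgr6, Sfrp1 and Ctnnb1 in injured libraries, and 3.74%, 2.02% and 5.54% in uninjured libraries. The median over all genes tested was 35.0% in injured and 20.4% in uninjured libraries. Injured replicate 2 held the lowest Sfrp1 and Ctnnb1 of the 6 libraries but the highest Lgr6 of the injured ones. Without it the log2 differences were -1.11 for Lgr6 and -0.68 for Sfrp1.

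Ratios within a library do not depend on any factor by which a whole library was scaled. The ratio of Sfrp1 to Ctnnb1 was 0.478, 0.499 and 0.446 in injured replicates 1 to 3 and 0.868, 0.90 and 0.941 in uninjured replicates 1 to 3. It held the 3 injured libraries together, replicate 2 included, at 0.474 ± 0.0264 against 0.903 ± 0.0366 (SD, n = 3 each). The ratio of Lgr6 to Ctnnb1 was 0.0307, 0.0574 and 0.0281 in injured libraries and 0.0805, 0.0837 and 0.0961 in uninjured libraries, again without overlap. Between the lower genes themselves the groups overlapped, with Lgr6 to Sfrp1 at 0.0642, 0.115 and 0.0630 in injured and 0.0927, 0.0929 and 0.102 in uninjured libraries.

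Set against the basal cell factor Trp63, both lower genes overlapped between the groups. The overlap rested on injured replicate 2 for Lgr6 and on injured replicate 1 for Sfrp1. Trp63 itself was at 112, 99.5 and 140.4 FPKM in injured libraries and at 187, 194 and 157 FPKM in uninjured libraries. Of the 12 horizontal basal cell markers in the table, 3 stood lower without overlap, Trp63 among them, and 0 higher. Among all genes tested 6.75% stood lower and 12.0% higher without overlap. On that list Icam1, Itgb4, Itga6, Itgb1, Egfr and Cebpd had a higher injured mean, and Bcam, Col17a1, Dst, Lamb3 and Snai2 a lower one. Ratios to these genes were not computed. The ratio of Sfrp1 to Trp63 was 0.607, 0.466 and 0.470 in injured and 0.578, 0.567 and 0.674 in uninjured libraries. The ratio of Lgr6 to Trp63 was 0.0390, 0.0536 and 0.0296 in injured and 0.0536, 0.0527 and 0.0688 in uninjured libraries. Ctnnb1 to Trp63 did not overlap and was higher in injured libraries, at 1.09 ± 0.170 against 0.671 ± 0.0437 (SD, n = 3 each). In these bulk samples fewer cells that express a gene and less of its RNA per cell cannot be told apart.

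**Figure D2:**
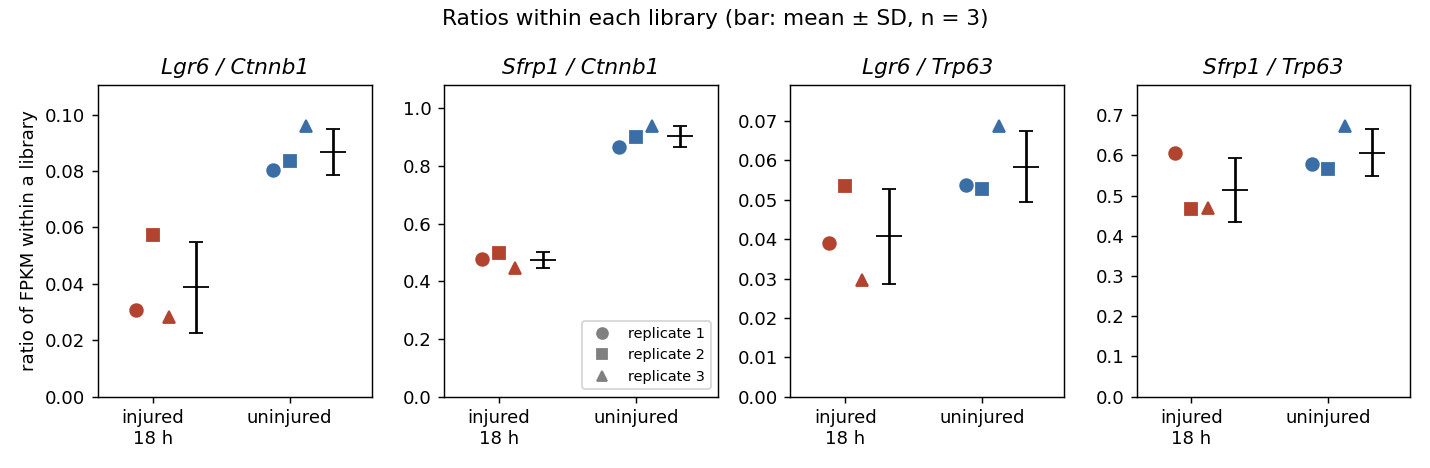
Ratio of FPKM within a library for Lgr6 and Sfrp1 over Ctnnb1 and over Trp63 (panels), in 3 injured and 3 uninjured libraries, with the mean ± SD (n = 3) as a bar. Over Ctnnb1 the groups are apart, as in 0.446 to 0.499 against 0.868 to 0.941 for Sfrp1. Over Trp63, itself lower in each injured library, they overlap.

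Markers of other cell types moved beside these genes. Mature olfactory neuron markers, 10 of 12 in the table and none at the table's lowest value, summed to 137 to 468 FPKM in injured and 471 to 779.8 FPKM in uninjured libraries. The nearest sums lay 3.24 FPKM apart. Stoml3 took much of them, at 111, 168 and 94.0 FPKM in injured and 316, 370 and 561 FPKM in uninjured libraries. Of the 10 markers 4 were lower and 0 higher without overlap, beside 6.75% and 12.0% of all genes tested. Ncam1 had a higher injured mean, at 32.7 against 13.4 FPKM. Of the Bowman's gland list 4 of 14 were in the table. They summed to 1219.9 to 2433 FPKM in injured and 3101 to 5045 FPKM in uninjured libraries, nearly all of it Plunc. Of these 4 markers 1 was lower and 0 higher without overlap, beside 6.75% and 12.0% of all genes tested. Ltf had a higher injured mean, at 82.6 against 42.6 FPKM, as did Sox9, at 14.5 against 13.2 FPKM, while Tff2 had a lower one. Of the fibroblast list 6 of 12 were in the table, with a sum of 112 to 239 FPKM in injured and 155 to 244 FPKM in uninjured libraries. Its member Dcn, a matrix proteoglycan, was at 27.5, 62.5 and 15.3 FPKM in injured and at 116, 162 and 145 FPKM in uninjured libraries. The other 5 fibroblast markers had a higher mean in injured libraries, among them Mgp, a matrix protein, at 124, 27.6 and 90.1 FPKM in injured and 24.3, 16.8 and 22.1 FPKM in uninjured libraries, without overlap. The sustentacular list, 10 of 15 in the table, summed to 391 to 860.0 FPKM in injured and 574 to 652 FPKM in uninjured libraries. The keratin Krt18 took much of that sum in injured libraries, at 390, 119 and 558 FPKM, against 133, 160.0 and 173 FPKM in uninjured libraries. Of these 10 markers 4 were lower without overlap, beside 6.75% of all genes tested. Their injured means were at 23.9% of the uninjured mean for Cyp1a2, 42.8% for Muc2, 63.3% for Hes1 and 64.0% for Hey1. The horizontal basal cell list, 12 of 15 in the table, summed to 406 to 762 FPKM in injured and 652 to 866 FPKM in uninjured libraries. The remaining lists overlapped too: leukocyte markers, 6 of 16 in the table, summed to 34.2 to 122 and 30.1 to 62.3 FPKM, ciliated cell markers, 6 of 9, to 34.1 to 61.0 and 45.4 to 105 FPKM with Dnali1 at the lowest table value in at least 1 library, tuft cell markers, 2 of 6, to 3.19 to 15.5 and 6.84 to 12.3 FPKM, and the single ensheathing glia marker of 8, Erbb3, to 2.99 to 7.40 and 2.37 to 11.6 FPKM, in injured and uninjured libraries. None of the 10 endothelial markers had an entry. The part of any of these lists in the levels of Lgr6 and Sfrp1 was not tested.

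The rest of the pathway was described from 182 further Wnt symbols in 10 role lists, of which 103 were in the table and tested. With limma, which fits a linear model to each gene and shares information on variance across genes, 0 of the 103 rose and 0 fell at a Benjamini-Hochberg adjusted p of 0.05 over all genes. Among all genes tested 0% were called higher and 0.0125%, a single gene, lower. At an unadjusted limma p of 0.05 there were 11 of the 103, with 6 lower and 5 higher, beside 11.2% of all genes. The groups did not overlap for 10 Wnt genes that stood lower and 6 that stood higher, where the shares among all genes were 6.75% lower and 12.0% higher. Of the 103, 54 had a positive and 49 a negative change, beside 5027 positive and 2960 negative among all 7987 genes tested. That split is also the background for the signs in the lists below. The median change of the 103 was 0.05 against 0.16 for all genes tested, and it turned to -0.12 after upper-quartile scaling, which moved the median of all genes to -0.01. The median of the 103 also turned to -0.10 without injured replicate 3 and to -0.04 without uninjured replicate 2.

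Without injured replicate 2, limma called 4 Wnt genes higher, Ccnd1, Myc, Fosl1 and Tmed5, and 1 lower, Sostdc1. The shares of all genes called were then 3.52% higher and 1.17% lower. Groups did not overlap for 31 Wnt genes that stood higher and 15 that stood lower, beside 29.7% and 14.4% of all genes. Among all genes tested 4835 then had a positive and 3052 a negative change. Leaving out that library leaves 2 injured libraries.

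**Figure D3:**
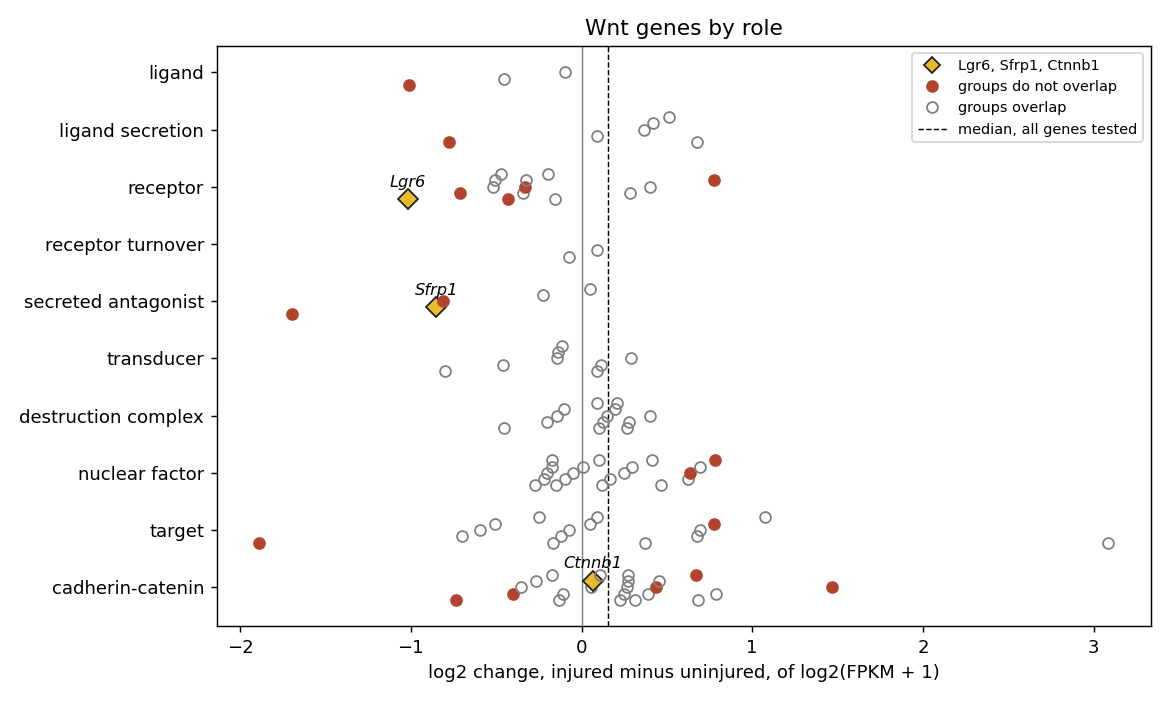
Change in log2(FPKM + 1), injured minus uninjured libraries, for each tested Wnt gene, by role; diamonds are Lgr6, Sfrp1 and Ctnnb1, filled circles are genes whose injured and uninjured libraries do not overlap, and the dashed line is the median of all genes tested (0.16). Lgr6 (-1.02) has the most negative change among receptors, and Sostdc1 (-1.70) that among secreted antagonists; a gene on 2 lists is drawn on both.

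Among ligands 3 of 24 symbols were in the table, and none passed. Wnt4 was at 12.3 ± 1.87 FPKM in injured and 17.6 ± 5.20 FPKM in uninjured libraries. Wnt5a, a ligand best known for signalling without beta-catenin, was at 0.874, 1.14 and 1.57 FPKM in injured and 4.01, 3.64 and 2.64 FPKM in uninjured libraries, without overlap (limma log2 change -1.01 ± 0.45 SE, as for the other Wnt genes below, with limma adjusted p = 0.437). Wls, the carrier that brings Wnt proteins to the cell surface, was at 52.5, 53.8 and 47.5 FPKM in injured and 102, 80.8 and 84.4 FPKM in uninjured libraries, also without overlap (-0.78 ± 0.27, limma adjusted p = 0.362). The cargo receptor Tmed2, the other abundant gene of ligand secretion, was at 39.5 ± 17.4 and 27.2 ± 1.53 FPKM. No gene of the 6 on that list passed over the 6 libraries.

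The relatives of Lgr6 stood on both sides. Lgr4 was at 9.60, 9.43 and 12.6 FPKM in injured and 15.9, 12.9 and 14.8 FPKM in uninjured libraries (log2 change -0.43 ± 0.25 SE, limma adjusted p = 0.539). Lgr5, also a Wnt target and a marker of globose basal cells, was at 3.72, 4.04 and 8.20 FPKM in injured and 2.36, 2.11 and 3.15 FPKM in uninjured libraries (0.78 ± 0.38, limma adjusted p = 0.484). Groups did not overlap for either gene, and neither passed. Of the summed FPKM of Lgr4, Lgr5 and Lgr6, Lgr6 made up 24.8%, 28.4% and 16.7% in injured and 35.5%, 40.5% and 37.6% in uninjured libraries. Lgr5 made up 21.0%, 21.5% and 32.8% in injured and 8.35%, 8.38% and 10.97% in uninjured libraries. The Lgr4 share overlapped between the groups, at 51.6% ± 2.27 and 52.9% ± 2.78 (SD, n = 3 each). The sum itself was 17.7, 18.8 and 25.0 FPKM in injured and 28.3, 25.2 and 28.7 FPKM in uninjured libraries. The globose basal cell list, 8 of 9 in the table with Lgr5 among them, summed to 34.05 to 84.5 FPKM in injured and 29.9 to 34.11 FPKM in uninjured libraries. These sums overlapped narrowly. Of the 8 markers 4 were higher without overlap, Neurod1, Lgr5, Ezh2 and Top2a, and 0 lower, beside 12.0% and 6.75% of all genes tested. The part of this list in the Lgr5 level was not tested.

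**Figure D4:**
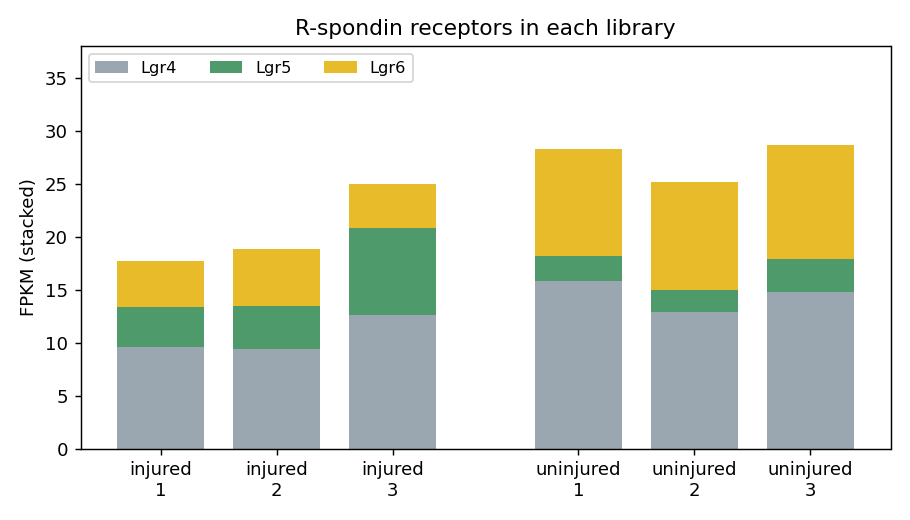
Stacked bars of the FPKM of the R-spondin receptors Lgr4, Lgr5 and Lgr6 in each injured and uninjured library. The Lgr6 segment is 16.7% to 28.4% of the stack in injured libraries and 35.5% to 40.5% in uninjured ones, and the Lgr5 segment is larger in each injured library.

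Of the 13 receptors and co-receptors tested besides Lgr6, 10 had a negative and 3 a positive change, with a median of -0.33, and none passed. Without injured replicate 2 there were 8 negative and 5 positive changes with a median of -0.13, and 3 genes stood lower and 3 higher without overlap. Among all genes tested 14.4% then stood lower and 29.7% higher without overlap. Fzd7, a Frizzled receptor, was at 14.5, 9.13 and 18.2 FPKM in injured and 21.1, 25.6 and 21.5 FPKM in uninjured libraries (log2 change -0.71 ± 0.29 SE, limma adjusted p = 0.403). The cell surface proteoglycan Gpc4 was at 10.8 ± 1.80 FPKM in injured and 13.8 ± 1.47 FPKM in uninjured libraries. It was again without overlap, with 0.118 FPKM between the nearest libraries. Gpc4 lies on the X chromosome, and the groups also differ in Xist as given above, whose part was not tested. The most abundant genes of this list overlapped between groups: Tspan12, a tetraspanin of the Frizzled complex, was at 26.7 ± 6.97 and 33.4 ± 6.72 FPKM, and the proteoglycan Sdc1 at 24.0 ± 7.64 and 26.2 ± 5.52 FPKM. The ubiquitin ligases that R-spondins act on overlapped too, with Rnf43 at 8.55 ± 3.20 and 7.80 ± 1.98 FPKM and Znrf3 at 4.85 ± 1.29 and 5.09 ± 0.964 FPKM in injured and uninjured libraries.

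Besides Sfrp1, 4 of 16 symbols of secreted antagonists were in the table. Sostdc1, an antagonist of Wnt and BMP signals, was at 6.41, 8.88 and 4.58 FPKM in injured and 23.5, 19.9 and 26.2 FPKM in uninjured libraries. Its groups did not overlap, and its log2 change of -1.70 ± 0.28 (SE) had the smallest adjusted p of the 103 Wnt genes (limma adjusted p = 0.119). Igfbp4, a binding protein of insulin-like growth factors that also inhibits Wnt signalling, was at 36.4, 23.4 and 27.3 FPKM in injured and 48.4, 53.3 and 51.0 FPKM in uninjured libraries, without overlap (-0.81 ± 0.27, limma adjusted p = 0.339). Dkk3 was at 37.9 ± 13.8 and 42.7 ± 4.85 FPKM and overlapped. Sfrp1 was the most abundant gene of this list in both groups. Sfrp2, Sfrp4, Sfrp5 and Frzb were not analysed here.

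Of 13 genes tested from the destruction complex around beta-catenin, 9 had a positive and 4 a negative change, with a median of 0.13. Among all genes tested 5027 changes were positive and 2960 negative. Over the 6 libraries 0 genes of this list had groups without overlap, beside 6.75% lower and 12.0% higher among all genes tested. Without injured replicate 2 the median was 0.20 and 3 genes stood higher without overlap, beside 29.7% of all genes tested. Its most abundant genes were the kinase Csnk1a1, which primes beta-catenin for degradation, at 74.6 ± 21.1 FPKM in injured and 68.6 ± 14.4 FPKM in uninjured libraries, and the phosphatase subunit Ppp2r1a at 51.6 ± 7.32 and 47.0 ± 11.5 FPKM. Of 8 transducers none passed, with Cxxc5 at 16.7 ± 4.51 and 18.2 ± 2.77 FPKM and the Dishevelled gene Dvl3 at 12.9 ± 5.23 and 9.97 ± 2.02 FPKM.

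Among 20 nuclear factors 2 stood higher in every injured library than in any uninjured one, beside 12.0% of all genes tested, and none passed. Without injured replicate 2, 4 stood higher and 1 lower without overlap, beside 29.7% and 14.4% of all genes tested. Tbl1x, a corepressor subunit that can bind beta-catenin, was at 53.6, 55.3 and 43.6 FPKM in injured and 28.9, 28.9 and 29.3 FPKM in uninjured libraries (log2 change 0.78 ± 0.25 SE, limma adjusted p = 0.330). Tbl1x lies on the X chromosome, and the groups also differ in Xist as given above, whose part was not tested. Smarca4, the ATPase of a chromatin remodelling complex, was at 17.8, 26.4 and 20.2 FPKM in injured and 12.8, 13.4 and 13.6 FPKM in uninjured libraries (0.64 ± 0.25, limma adjusted p = 0.397). The repressor Hbp1 was at 34.1 ± 13.3 and 34.0 ± 9.31 FPKM.

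Of 16 genes tested on the list of Wnt targets 8 stood on each side of 0, with a median change of -0.01, and none passed. Without injured replicate 2 the list had 11 positive and 5 negative changes and a median of 0.26, and Ccnd1, Myc and Fosl1 were called higher. Ascl2, a transcription factor known as a Wnt target in intestinal stem cells, was at 1.01, 0.842 and 1.67 FPKM in injured and 4.42, 6.71 and 11.03 FPKM in uninjured libraries, without overlap (log2 change -1.89 ± 0.42 SE, limma adjusted p = 0.178). Ccnd1, the G1 cyclin, was at 79.1, 33.5 and 102 FPKM in injured and 22.7, 32.7 and 37.3 FPKM in uninjured libraries (1.08 ± 0.42, limma adjusted p = 0.393). Myc, at 25.6, 8.49 and 29.8 FPKM in injured and 10.6, 9.35 and 14.8 FPKM in uninjured libraries, showed the same low injured replicate 2. Fosl1, an AP-1 subunit, was at 25.3, 1.08 and 43.9 FPKM in injured libraries and at 1.10, 0.001 and 0.913 FPKM in uninjured libraries, where 0.001 is the lowest value of the table. Id2, on which BMP signals also act, was at 27.6 ± 7.72 and 32.2 ± 3.97 FPKM. Axin2 was not analysed here. Many of these targets also answer to signals other than Wnt.

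The partners of beta-catenin at the membrane included 22 further tested genes, none of which passed. Of these 15 had a positive and 7 a negative change, with a median of 0.26, beside 5027 positive and 2960 negative among all genes tested. Ctnnd1, which encodes p120-catenin and steadies cadherins at the surface, was at 64.6, 62.5 and 83.2 FPKM in injured and 43.4, 42.2 and 44.4 FPKM in uninjured libraries (log2 change 0.67 ± 0.26 SE, limma adjusted p = 0.397). Ctnnb1 to Ctnnd1 was 2.21, 1.49 and 1.78 in injured and 2.88, 2.89 and 2.53 in uninjured libraries, so that the ratio of these catenins was lower in each injured library while Ctnnb1 itself overlapped. Vcl, the actin linker vinculin, was at 20.6, 12.8 and 128 FPKM in injured and 12.0, 12.0 and 9.81 FPKM in uninjured libraries, and its mean rests on injured replicate 3. Mllt4, the junction protein afadin, was at 16.7 ± 6.53 and 11.6 ± 1.08 FPKM, and the mesenchymal cadherin Cdh11 at 1.82 ± 0.312 and 3.73 ± 0.742 FPKM, both without overlap. Ctnnd2, named after its values were seen, completes the genes without overlap, at 6.91 ± 0.809 and 9.55 ± 2.05 FPKM. Of the 22 genes, 3 stood higher and 2 lower without overlap, beside 12.0% and 6.75% of all genes tested. Without injured replicate 2, 9 stood higher and 3 lower, beside 29.7% and 14.4% of all genes tested. The most abundant partners on the list, Cdh1 and Ctnna1, overlapped between groups: E-cadherin (Cdh1) was at 96.2, 35.5 and 125 FPKM in injured and 57.4, 54.5 and 52.6 FPKM in uninjured libraries, and alpha-catenin (Ctnna1) at 90.8 ± 26.4 and 70.6 ± 28.9 FPKM. Jup, plakoglobin, the closest relative of beta-catenin, was at 39.0 ± 4.35 FPKM in injured and 31.6 ± 7.33 FPKM in uninjured libraries, and Ctnnb1 exceeded it 2.39 to 4.11 times in injured and 2.88 to 5.14 times in uninjured libraries.

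Over the 6 libraries, which share their 2 groups, the Pearson correlation of log2(FPKM + 1) was 0.84 between Lgr6 and Sfrp1, -0.33 between Ctnnb1 and Lgr6 and 0.23 between Ctnnb1 and Sfrp1. The 5 genes most like Lgr6 were Dcdc2a, Usp11, Gnmt, Fmod and Diras2, with r from 0.988 to 0.992. Fmod, a small proteoglycan of the matrix, was at 16.6 ± 3.07 FPKM in injured and 44.4 ± 6.64 FPKM in uninjured libraries. Those most like Sfrp1 were Srd5a1, Tril, Arhgap44, Meis2 and Cabyr, with r from 0.986 to 0.993. Among them the homeobox factor Meis2 was at 13.4 ± 4.58 FPKM in injured and 33.2 ± 4.04 FPKM in uninjured libraries, and Srd5a1, a steroid reductase, at 13.9 ± 3.23 and 24.1 ± 0.781 FPKM. Those most like Ctnnb1 were St3gal1, Lamp2, Elovl5, Prkrir and Gnai3, with r from 0.982 to 0.992. Lamp2, a lysosomal membrane protein, was at 198 ± 57.8 FPKM in injured and 192 ± 11.04 FPKM in uninjured libraries. With so few libraries high values are common: r was over 0.9 for 146 genes with Lgr6, 98 with Sfrp1 and 194 with Ctnnb1.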

How the data were processed

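PolyA RNA of sorted cells was made into Nextera XT libraries, per the labels' protocols. Per the submitters' processing notes, the tools FastQC, TopHat and Cuffdiff and the build mm9 are listed; the sources used here do not give their versions, roles or settings. The authors deposited 1 table, whose values are taken to be FPKM because Cuffdiff is named. Read depth is unknown: no steps of whole reads were found, so no counting intervals were computed. Each library is a pool of animals, so p-values measure the spread between pools.

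The 7987 of 8078 entries whose mean reached 1 FPKM were fitted with limma 3.58.1 (R 4.3.3, trend and robust variances) on log2(FPKM + 1), 3 injured against 3 uninjured libraries, and the fit was tested on simulated data. Lgr6, Sfrp1, Ctnnb1 and the lists were chosen with earlier results of these data known. Named Wnt genes were those past the threshold, up to 4 per list without overlap, the 2 most abundant of each list, and relatives of the members. A few others were named after their values were seen. Joined entries, 131 of them, stood for no gene, and held none of the listed Wnt symbols. Alternatives covered scaling, filters, pseudocounts, variance model, library weights, thresholds, a replicate block and each library left out. Figures used Python 3.11.15 and matplotlib 3.10.9.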

Additional observations from a re-analysis of the deposited data

How the results depend on the processing

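Lgr6 and Sfrp1 had a negative log2 change under each alternative run that recomputes it, and Ctnnb1 changed sign with the scaling. With a library left out, the change ran from -1.11 to -0.96 for Lgr6, from -0.95 to -0.68 for Sfrp1 and from -0.05 to 0.28 for Ctnnb1, whose sign turned without injured replicate 1 or 3. Lgr6 was at -1.18 after upper-quartile scaling, -1.17 after quantile normalization, -1.15 with Mir703 left out and the libraries rescaled, and -1.15 with a pseudocount of 0.1. These 3 scalings gave -0.12, -0.08 and -0.09 for Ctnnb1, and they turned the median of the 103 other Wnt genes to -0.12, -0.13 and -0.10. With a library left out that median ran from -0.10 to 0.13, and it was negative without injured replicate 3 and without uninjured replicate 2.

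Counts of calls moved more. With a library left out, limma called 0 to 278 genes higher and 1 to 92 lower, and 0 to 4 Wnt genes higher and 0 to 1 lower, the highest counts coming without injured replicate 2. Library quality weights gave 85 higher and 49 lower genes, with 1 Wnt gene lower, Sostdc1. Limma without trend and robust steps gave 3 higher and 3 lower, and the genes called lower were 3 after upper-quartile scaling, 4 after quantile normalization and 2 with a pseudocount of 0.1. Deviations of same-numbered libraries correlated at -0.0892, 0.0677 and -0.0776, and those of other pairs at -0.0808 to 0.149. With 3 libraries per group these values cannot decide whether the replicate numbers pair the libraries. A replicate block gave 134 higher and 87 lower genes, against 0 and 1 without it. It called 2 Wnt genes higher (Fosl1 and Vcl) and 2 lower (Ascl2 and Sostdc1). The cause of these shifts was not tested. Unknown depth and 3 pools per group limit what low genes such as Wnt5a can show.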
